A study of Mus musculus with 26 samples.

Results

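RNA extracted with TRIzol from C2C12 cells at passage 11 was compared with RNA extracted with the NucleoSpin RNA Kit from C2C12 cells at passage 14. C2C12 cells are an established line of mouse muscle precursors, which stop dividing and fuse into myotubes when serum is withdrawn. Of the 26 libraries of the series, 18 came from cells transfected with siRNA, and among these 18 the extraction label is TRIzol for 6 and NucleoSpin for 12. Each of the 6 conditions, siCtrl, siSMYD3#1 or siSMYD3#2 at 0 h or 24 h, held 1 TRIzol library and 2 NucleoSpin libraries. All 18 came from the same parental line without a transgene, the siRNAs were transfected once into dividing cells and again 24 h afterwards as differentiation began, 0 h marks confluent cells and 24 h marks cells after a day in differentiation medium. siCtrl is the control siRNA, and the other 2 siRNAs target Smyd3, a gene for a lysine methyltransferase.

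The comparison asks which genes and RNA types follow the batch when siRNA and time are held fixed. The 2 extraction methods, the 2 passages and any difference in the day of culture or library preparation changed together, so their parts cannot be told apart. With 1 TRIzol library per condition, the spread within the TRIzol cells was not measured at any 1 condition, and the tests rest on the 6 conditions together. All 6 TRIzol libraries share a passage and a replicate number, so the batch contrast was seen once. The p-values below measure how steady it was over conditions, not how far another such batch would repeat it. The study's methods call the replicates biological. The 4 libraries of a stable line carrying the empty vector pREV were also extracted with TRIzol, at a passage not given in the sources used here, and are set beside the others without a test.

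TRIzol reagent separates RNA from DNA and protein by phase separation and alcohol precipitation, which keeps RNA of any length. Silica column kits bind RNA to a membrane and by design recover short RNA poorly. Every library here was then made with poly(A) selection, so most reads came from mature messenger RNA, and snoRNAs, tRNAs, ribosomal RNA and the mRNAs of replication-dependent histones, which carry no poly(A) tail or only a brief one, entered only as traces. Long noncoding RNAs such as Neat1 and Malat1 stay in the nucleus, and reads over introns or unannotated transcripts come mostly from nuclear RNA. Continued passage of C2C12 cells is known to change their growth and their ability to differentiate.

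The total count was 20448760 to 32165613 in the 6 TRIzol libraries (median 26397464) and 14315193 to 60398170 in the 12 NucleoSpin libraries (median 23572624), so the depths overlap. Levels are given as CPM, the counts of a gene scaled to a fixed library size, with TMM factors that were 1.003 to 1.081 for TRIzol and 0.959 to 1.021 for NucleoSpin. The 6 myoblast markers summed to 464 to 924 CPM in TRIzol and 1325 to 2139 CPM in NucleoSpin libraries, a sum that Des dominates. Myod1, Cdh15 and Des were lower in TRIzol, Cdh2 (log2 difference 0.59, adjusted p = 0.00287) and Ncam1 (0.77, adjusted p = 6e-07) were higher, and Myf5 was not called. The 6 markers of differentiating myocytes summed to 68.7 to 530 CPM in TRIzol and 56.0 to 1603 CPM in NucleoSpin libraries, with overlap. Of the markers of other cell types, macrophage genes summed to 3.06 to 5.38 against 2.00 to 6.75 CPM, with Adgre1 and Tyrobp at 0 in every library, and endothelial genes to 0.184 to 0.627 against 0.295 to 3.81 CPM. Adipocyte genes summed to 6.61 to 27.8 against 10.7 to 19.8 CPM and osteoblast genes to 69.2 to 92.8 against 47.3 to 68.7 CPM, the latter mostly Runx2. Smyd3, the siRNA target, lay at 17.8 to 21.6 CPM with siCtrl, 15.1 to 19.3 CPM with siSMYD3#1 and 5.37 to 9.65 CPM with siSMYD3#2, and its TRIzol minus NucleoSpin difference was 0.19 on the log2 scale (edgeR adjusted p = 0.0985).

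Of 15820 genes tested, 8119 (51.3%) passed an adjusted p of 0.01 in edgeR's quasi-likelihood test, 4123 (26.1%) higher and 3996 (25.3%) lower in TRIzol. At least a 2-fold change was fitted for 2385 of them, 1406 higher and 979 lower. The median size of the log2 difference was 0.34 over all genes tested, against 0.07 between NucleoSpin replicates 2 and 1. In 5883 genes (37.2%) the TRIzol library lay beyond both NucleoSpin libraries on the same side in all 6 conditions, and 5806 of these were called, 2917 higher and 2889 lower. NucleoSpin replicates 2 and 1 differed at 0 genes (0% of those tested, smallest adjusted p 1.000), with 319 at an unadjusted p under 0.05 in edgeR and 0 called and 285 unadjusted in DESeq2. The extractions thus differed by more than the NucleoSpin replicates did. Those replicates shared the kit and the passage, and their numbers do not pair libraries across conditions. Their contrast therefore does not measure how much separate batches vary.

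A set of 6 loci, 4 of them short genes annotated as miRNA, was read far more often from NucleoSpin RNA. The sequences of short members are shown because the annotated names give little idea of what was counted. Gm23935, Gm24270 and Gm24187 are annotated as miRNA genes of identical length in GRCm38, and Gm24187 differs from Gm23935 only by G11A, counted from 1 at the 5′ end and given in capitals. Gm23935 lies at chr16:11144125-11144181 on the plus strand, Gm24270 at chr9:56223715-56223771 on the minus strand and Gm24187 at chr13:9834469-9834525 on the minus strand. For Mir6236 the mature form mmu-miR-6236 is printed from RefSeq with the seed, bases 2 to 8, in capitals.
Gm23935 and Gm24270: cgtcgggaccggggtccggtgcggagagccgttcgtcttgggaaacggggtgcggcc
Gm24187: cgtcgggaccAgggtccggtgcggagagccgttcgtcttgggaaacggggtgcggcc
mmu-miR-6236: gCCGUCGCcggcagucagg

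The 57 bases of Gm23935 are 73.7% G or C and those of Gm24187 are 71.9%. A further gene, Gm24245 at chr4:139338304-139338360, has the same bases as Gm23935 but received only 0 to 20 counts per library, and 6 annotated genes in all share a 20-base word with Gm23935. Since reads from such copies cannot be assigned to 1 place, and the treatment of reads with several alignments is not given in the sources used here, the split among the copies is uncertain. Gm15564, annotated as an antisense gene at chr16:35966752-35983230 on the minus strand, and Lars2, the gene for mitochondrial leucyl-tRNA synthetase at chr9:123366927-123462666 on the plus strand, share 33 such words with each other and none with Gm23935 or Mir6236.

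Gm23935 lay at 723 to 1570 CPM in the NucleoSpin libraries (median 1038) and at 55.2 to 144 CPM in the TRIzol libraries (median 67.8), lower by 3.72 on the log2 scale with SE 0.25 (adjusted p = 3.77e-08). Lars2 lay at 1127 to 1715 CPM (median 1343) against 76.7 to 180 CPM (median 103). Both were singled out after their values were seen, and in neither did the groups overlap. Lars2 fitted as 12.3-fold lower, with a log2 difference of -3.62, SE 0.18 and adjusted p = 3.65e-10. Mir6236 lay at 261 to 386 CPM (median 324) against 13.3 to 41.9 CPM (median 19.6), with a log2 difference of -3.89, SE 0.19 and adjusted p = 4.69e-10. Its highest TRIzol library, siSMYD3#1 at 0 h, was still far below the lowest NucleoSpin library.

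Gm15564 ranged over 108 to 193 CPM in NucleoSpin and 5.98 to 16.4 CPM in TRIzol libraries, a log2 difference of -3.87 (SE 0.22, adjusted p = 4.14e-09). Gm24187 ranged over 57.9 to 134 against 3.37 to 11.7 CPM and Gm24270 over 24.6 to 54.7 against 1.53 to 4.87 CPM, with log2 differences of -3.81 and -3.80. The 6 loci thus differed by similar factors, 12.3-fold to 14.8-fold. Among them are 2 short sequences that share no 20-base word, a long protein-coding gene and an antisense gene. None of these was compared with the ribosomal RNA repeat, so whether their reads came from a common source was not tested. Together the 6 loci took 0.261% to 0.356% of the counts of a NucleoSpin library and 0.0162% to 0.0399% of a TRIzol library. In the 4 vector libraries, extracted with TRIzol from another culture, they took 0.0174% to 0.0436%, a range that overlaps the TRIzol siRNA libraries and not the NucleoSpin ones. CT010467.1, annotated as ribosomal RNA and sharing exon bases with other genes on both strands, ranged over 334 to 923 CPM in NucleoSpin and 244 to 421 CPM in TRIzol libraries, a log2 difference of -0.80 (SE 0.17, adjusted p = 0.000795).

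**Figure D1:**
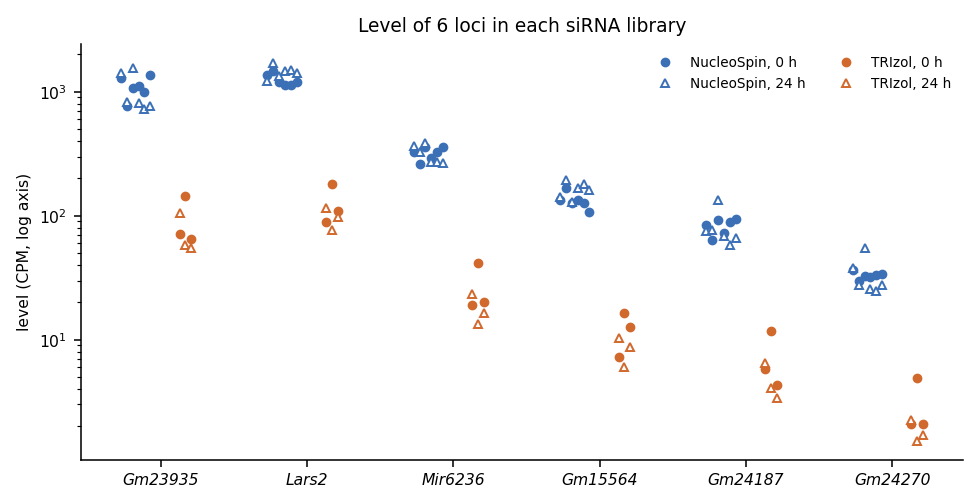
Level of the 6 short or repeated loci in the 18 siRNA libraries, in CPM on a log axis, with NucleoSpin and TRIzol libraries side by side, filled symbols for 0 h and open symbols for 24 h. The TRIzol libraries lie below every NucleoSpin library at all 6 loci, for Mir6236 at 13.3 to 41.9 against 261 to 386 CPM.

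Several noncoding RNA types were called higher in TRIzol more often than lower, and a few were not. Of 318 loci of the TEC type, unspliced transcripts still awaiting experimental checks, 182 (57.2%) were higher and 10 lower, with a median log2 difference of 1.08 against 0.00 over all genes tested. Of 44 sense intronic transcripts, which lie within introns of other genes, 27 (61.4%) were higher and 1 lower, with a median of 1.15. Of 447 antisense genes 215 (48.1%) were higher and 31 lower (median 0.82), and of 452 lincRNAs, long RNAs between genes, 176 (38.9%) were higher and 66 lower (median 0.46). Processed pseudogenes, whose reads can come from the parent gene, were higher for 60 and lower for 146 of 1279 (median -0.13), and the 21 genes annotated as miRNA were higher for 4 and lower for 6 (median 0.25). Protein-coding genes showed no such lean, with 3272 of 12629 (25.9%) higher, 3661 (29.0%) lower and a median of -0.03.

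The same lean was seen at low and at high counts. Among genes with a mean under 30 counts, 494 of 1109 long noncoding genes were higher and 81 lower (median 0.88), against 416 and 248 of 1471 protein-coding genes (median 0.22). At a mean of 100 counts or more, 77 of 158 long noncoding genes were higher and 24 lower (median 0.30), against 2580 and 3182 of 10186 protein-coding genes (median -0.04). The noncoding genes lay above the protein-coding genes in each range, with a smaller gap at higher counts. Because exons of antisense and intronic genes lie within other transcription units, and the strand setting of the counting is not given in the sources used here, part of their counts may belong to the overlapping gene or its unspliced RNA, which was not tested.

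The share of all counts taken by each RNA type was tested over libraries, with extraction labels permuted within conditions (729 arrangements, smallest possible exact two-sided p 0.00137, Benjamini-Hochberg over 20 measures). The TEC share was 0.0440% to 0.0736% in TRIzol (median 0.0569%) and 0.0218% to 0.0404% in NucleoSpin libraries (median 0.0348%). The sense intronic share was 0.00702% to 0.0113% against 0.00362% to 0.00626%, and the snoRNA share 0.00386% to 0.00537% against 0.00190% to 0.00346%. The processed transcript share, noncoding transcripts of no finer class, was 0.198% to 0.222% against 0.158% to 0.198%. In none of these did the groups overlap, for processed transcripts by less than the last digit given, and each reached the smallest exact p, 0.00137 (adjusted p = 0.00274). The miRNA share, which the short loci dominate, was 0.0104% to 0.0223% in TRIzol against 0.109% to 0.214% in NucleoSpin libraries, at the same exact p.

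The vector libraries, extracted with TRIzol, fell on the TRIzol side of each of these shares. Their TEC share was 0.0579% to 0.0702%, their sense intronic share 0.00919% to 0.0118%, and their miRNA share 0.00965% to 0.0246%. Thinned to 14315193 counts, a TRIzol library had 20389 to 21492 genes with a count (median 20889), a NucleoSpin library 18860 to 20304 (median 19724) and a vector library 21279 to 21871. In all, 12 of the 20 measures passed an adjusted p of 0.05 and 6 had groups that did not overlap. The share of cytosolic ribosomal protein mRNAs was 4.34% to 5.22% in TRIzol and 4.15% to 5.24% in NucleoSpin libraries (exact permutation p = 0.765), and the protein-coding share also missed the threshold (exact permutation p = 0.122).

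**Figure D2:**
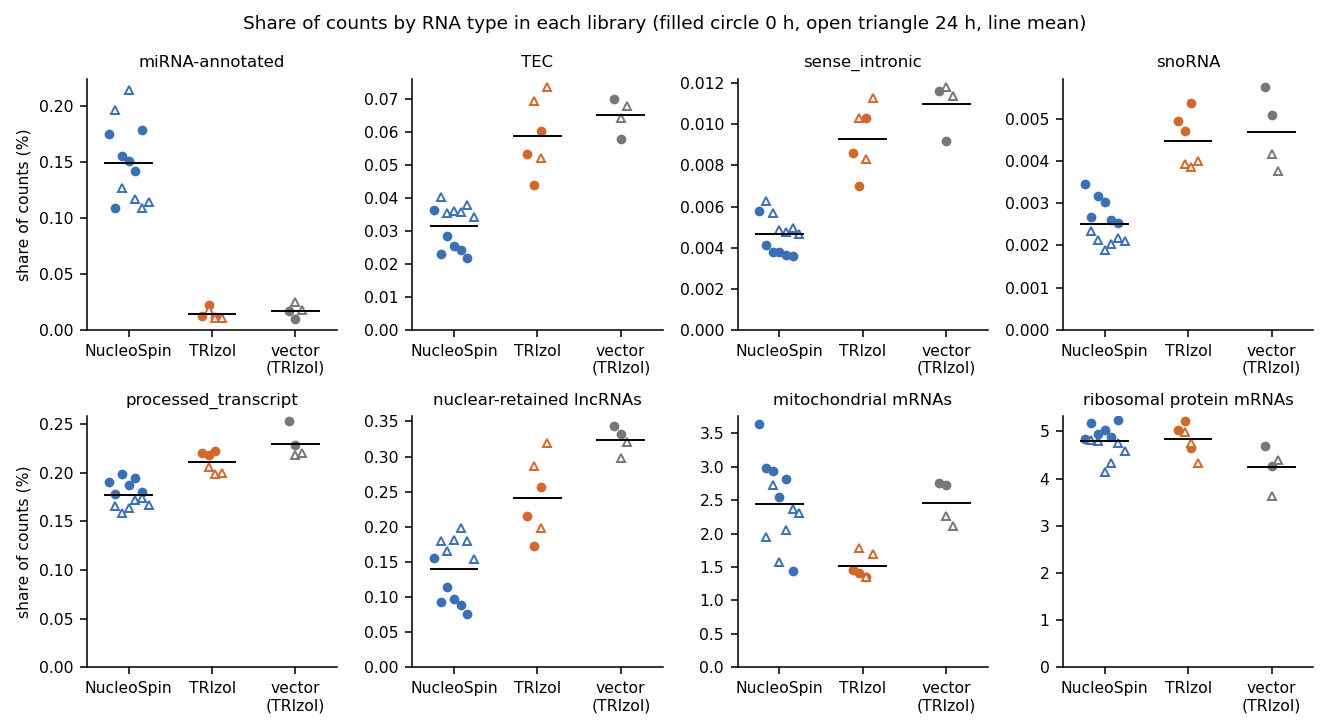
Share of all counts, in percent, of 8 RNA types in each library, for NucleoSpin, TRIzol and vector (TRIzol) libraries, with filled circles for 0 h, open triangles for 24 h and a line at the mean. The miRNA share of TRIzol libraries, 0.0104% to 0.0223%, lies below every NucleoSpin library, the TEC share of 0.0440% to 0.0736% above, and the ribosomal protein share overlaps.

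Nuclear-retained long noncoding RNAs were higher in TRIzol for 6 of 8 listed genes, with 1 lower and a median log2 difference of 0.90, which was 1.15 at 0 h and 0.42 at 24 h. The 6 include Xist, the RNA that silences an X chromosome, whose call was lost in 11 of 18 fits that left out 1 library (any siSMYD3#2 library, any siCtrl library of 24 h, or the second NucleoSpin library of siCtrl or siSMYD3#1 at 0 h), with adjusted p from 0.0114 to 0.0319. Neat1, the scaffold of nuclear paraspeckles, lay at 15.0, 15.8, 23.1, 34.5, 36.0 and 54.3 CPM in the NucleoSpin libraries of 0 h and at 230, 236 and 257 CPM in the TRIzol libraries. At 24 h it lay at 161 to 309 CPM against 252, 298 and 324 CPM. The groups were apart at 0 h and overlapped at 24 h, and the log2 difference was 3.20 at 0 h and 0.38 at 24 h, a change of -2.82 with time (adjusted p = 0.000379). Over both times it was 1.95 (SE 0.47, adjusted p = 0.00334), with adjusted p = 0.0149 without the siCtrl 0 h TRIzol library and 0.0127 without the siSMYD3#1 0 h TRIzol library.

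Malat1, a nuclear speckle RNA, ranged over 97.2 to 468 CPM in NucleoSpin (median 294) and 355 to 887 CPM in TRIzol libraries (median 560), with a log2 difference of 1.29 (SE 0.25, adjusted p = 0.000609). The ranges overlapped across times, and the TRIzol library was above both NucleoSpin libraries in each of the 6 conditions. Kcnq1ot1, the antisense RNA that silences an imprinted cluster, ranged over 0.463 to 3.11 against 4.36 to 8.08 CPM with no overlap (log2 difference 2.07, SE 0.23, adjusted p = 6.42e-07). Airn, another imprinted antisense RNA, was the member that was lower, by a log2 difference of -1.06. Gm37795, a TEC locus, ranged over 0.590 to 5.65 against 10 to 15.3 CPM, Gm26532, a lincRNA, over 0.772 to 3.84 against 12.2 to 14 CPM, and B930095G15Rik, a sense intronic transcript, over 2.38 to 7.54 against 12.6 to 19.5 CPM. Their groups did not overlap.

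The RNAs that poly(A) selection largely removes did not move together. Mitochondrial rRNAs and tRNAs were lower in TRIzol for 5 of 18 (27.8%, against 25.3% of all genes tested) and higher for none. Their median log2 difference was -1.77 at 0 h and -0.23 at 24 h. Neither the rRNA share nor the tRNA share of counts passed the threshold (exact permutation p = 0.118 and 0.132). For each share the TRIzol library was above both NucleoSpin libraries in 3 conditions and below both in 3. In edgeR mt-Rnr1 lost its call in most fits that left out 1 library, with adjusted p up to 0.0464. CT010467.1, given above, was lower too. Of 40 snoRNAs, guides of ribosomal RNA modification, 20 (50%) were higher and 0 lower, with a median of 0.79, and none reached a mean of 100 counts. The host genes of snoRNAs were higher for 7 of 15 and lower for 1 (median 0.37), and whether snoRNA counts include reads of host RNA was not tested. Of 25 replication-dependent histone genes 13 were higher and 0 lower, with a median of 0.60. Hist1h2bc, a core histone gene, ranged over 11.1 to 34.5 CPM in NucleoSpin (median 17.9) and 22.8 to 42.8 CPM in TRIzol libraries (median 28.9), with a log2 difference of 0.68 (SE 0.08, adjusted p = 1.34e-06). Hist1h1c, a linker histone gene, ranged over 24.8 to 145 against 41.6 to 166 CPM, with a log2 difference of 0.52 (SE 0.06). Both overlapped between groups across times, yet the TRIzol library was above both NucleoSpin libraries in all 6 conditions. Snord104 ranged over 1.57 to 2.96 against 2.85 to 4.33 CPM, with a log2 difference of 0.58 (SE 0.12, adjusted p = 0.000316). Hist1h1c and Hist1h2bc lay far above the other histone genes tested, such as Hist1h4i at 2.01 to 2.83 CPM in NucleoSpin siCtrl libraries. In those libraries the share of this class rose from 0.00673% and 0.00671% at 0 h to 0.0203% and 0.0201% at 24 h. Whether both genes stand for histone mRNA without a poly(A) tail, made in S phase, was not tested. Of 57 S phase genes 1 was higher and 19 lower, with a median of -0.14, and their part in the result was not tested.

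Of the 13 mRNAs of the mitochondrial genome 3 were lower in TRIzol (23.1%, against 25.3% of all genes tested) and none higher, with a median of -0.49, which was -0.91 at 0 h and -0.16 at 24 h. The called genes included mt-Co1, a subunit of cytochrome c oxidase, at 7781 to 19310 CPM in NucleoSpin (median 12912) and 5680 to 7188 CPM in TRIzol libraries (median 6375), a log2 difference of -1.02 (SE 0.13, adjusted p = 9.54e-06). Its groups did not overlap, and the spread among NucleoSpin libraries was wide. The other two, mt-Co2 (log2 difference -0.67) and mt-Atp6 (-0.59), each lost the call without any 1 of the TRIzol libraries of 0 h, with adjusted p of 0.0158, 0.0102 and 0.0125 for mt-Co2 without that of siCtrl, siSMYD3#1 and siSMYD3#2 and of 0.0295, 0.0292 and 0.0214 for mt-Atp6, and mt-Atp6 also without the first siCtrl NucleoSpin library of 0 h (0.0110). Both were counted far below mt-Co1. In siCtrl libraries mt-Co2 lay at 16.6 to 30.9 CPM in NucleoSpin and 12.3 to 15.5 CPM in TRIzol, and mt-Atp6 at 6.64 to 13.6 and 6.68 to 6.77 CPM. Other members lay lower still, such as mt-Nd3 at 0.532 to 1.40 and 0.471 to 0.751 CPM. Why the counts of these genes were so low was not tested, so they may not measure transcript levels. All 13 mRNAs took 1.35% to 1.78% of the counts in TRIzol and 1.44% to 3.64% in NucleoSpin libraries (exact permutation p = 0.00137, adjusted p = 0.00274), with overlap, and 2.11% to 2.75% in the vector libraries. The vector libraries thus lay above the TRIzol siRNA libraries and within the NucleoSpin range. Nuclear genes of oxidative phosphorylation were lower for 35 of 75 and higher for 1, with a median of -0.19. Mitochondrial ribosomal protein genes were lower for 15 of 76 and higher for 4 (median -0.07), below the share of all genes in both directions.

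Among protein-coding genes, the list with the highest share of lower calls of the 36 examined was that of the endoplasmic reticulum (ER) stress and amino acid response. When amino acids run short or unfolded protein builds up, eIF2α kinases raise translation of ATF4, which with CHOP, the product of Ddit3, switches on genes of amino acid supply, Chac1, Trib3 and Fgf21. In TRIzol, 31 of 39 listed genes were lower and 1 was higher, with a median log2 difference of -0.82. Trib3, a pseudokinase target of ATF4 and CHOP, lay at 46.5 to 64.2 CPM in NucleoSpin libraries at 0 h and 107 to 229 CPM at 24 h, and in TRIzol libraries at 5.55, 5.65 and 8.36 CPM at 0 h and 1.72, 1.83 and 1.88 CPM at 24 h. It was higher at 24 h than at 0 h in NucleoSpin libraries and lower in TRIzol libraries, and the log2 difference went from -3.13 to -6.53, a change of -3.40 (adjusted p = 1.8e-09). Over both times the log2 difference was -4.50 (SE 0.55, adjusted p = 1.7e-05).

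Chac1, which degrades glutathione, lay at 70.5, 78.4, 96.5, 101, 111 and 119 CPM in NucleoSpin libraries at 0 h and at 14.8, 23.0 and 24.3 CPM in TRIzol libraries. At 24 h it lay at 137 to 221 CPM against 3.80, 5.53 and 6.93 CPM. The groups were apart at both times, by -2.21 and -5.09 on the log2 scale, and the change with time was -2.88 (adjusted p = 2.9e-11). Asns, asparagine synthetase, lay at 261 to 297 CPM against 113, 116 and 122 CPM at 0 h and at 326 to 527 CPM against 32.0, 45.8 and 47.4 CPM at 24 h. Its log2 difference was -1.21 at 0 h and -3.35 at 24 h, with a change of -2.14 (adjusted p = 2.9e-11).

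Fgf21, a hormone secreted under nutrient and mitochondrial stress, lay at 0.253 to 1.58 CPM in NucleoSpin libraries at 0 h and 20.5 to 41.6 CPM at 24 h. In TRIzol libraries it lay at 0, 0.0338 and 0.0736 CPM at 0 h and 0.157, 0.184 and 0.633 CPM at 24 h, which is 0 to 18 counts. The groups did not overlap within a time point, and the fitted log2 difference was -6.45 (SE 0.26, adjusted p = 4.5e-13), which at such counts depends on the prior count. Adm2, a stress-induced peptide hormone gene outside the list, ranged over 2.81 to 11.3 CPM against 0 to 0.157 CPM, again with no overlap. Atf3, a transcription factor downstream of ATF4, ranged over 40.3 to 84.4 CPM (median 63.6) against 0.985 to 1.79 CPM (median 1.35), with a log2 difference of -5.45 (SE 0.15, adjusted p = 8.4e-15).

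Atf4 itself and Ddit3, both chosen after their values were seen, were lower by less. Atf4 ranged over 748 to 991 CPM in NucleoSpin (median 875) and 240 to 467 CPM in TRIzol libraries (median 362), a log2 difference of -1.32 (SE 0.09, adjusted p = 6.46e-10). Ddit3 ranged over 24.7 to 82.0 against 12.2 to 18.5 CPM, a log2 difference of -1.50 (SE 0.25, adjusted p = 0.000187). In both genes every TRIzol library was below every NucleoSpin library. The chaperones of the ER lumen moved less: Hspa5, the main one, had a log2 difference of -0.38 (adjusted p = 1.09e-05) and Calr, calreticulin, was the riser of the list at 0.26 (adjusted p = 0.00143). Hyou1, another ER chaperone gene, had a log2 difference of 0.02.

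Genes of glycolysis and the hypoxia response were lower for 23 of 38 and higher for none, with a median log2 difference of -0.76. These genes carry glucose in, turn it to lactate and export it, and many are targets of hypoxia-inducible factors. Slc16a3, the lactate exporter MCT4, lay at 41.7, 44.4, 59.6, 68.5, 76.1 and 93.8 CPM in NucleoSpin libraries at 0 h against 3.02, 4.30 and 5.28 CPM in TRIzol libraries, and at 53.2 to 99.5 CPM against 3.24, 3.92 and 5.22 CPM at 24 h. No library of one extraction entered the range of the other, and the log2 difference was -4.10 (SE 0.18, adjusted p = 1.03e-10). Bnip3, a mitophagy receptor induced by hypoxia, ranged over 33.2 to 115 CPM (median 57.7) against 8.37 to 10.9 CPM (median 10.2), a log2 difference of -2.62 (SE 0.16, adjusted p = 2.89e-09). Slc2a1, the glucose transporter GLUT1, ranged over 278 to 482 CPM (median 357) against 69.7 to 118 CPM (median 99.5), a log2 difference of -1.89 (SE 0.11, adjusted p = 5.44e-10).

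Vegfa, the angiogenic growth factor, ranged over 209 to 361 CPM (median 279) against 63.5 to 149 CPM (median 110), with a log2 difference of -1.42 (SE 0.15, adjusted p = 2.03e-06) and no overlap. Of the glycolytic enzymes, Pgk1, phosphoglycerate kinase, had a log2 difference of -0.79 (adjusted p = 9.08e-05) and Ldha, lactate dehydrogenase A, one of -0.47, which missed the threshold (adjusted p = 0.0102). Gapdh, often used as a reference transcript, had log2 differences of -0.04 at 0 h and -0.77 at 24 h (adjusted p = 0.0306 over both), and Actb, β-actin, one of 0.17 (adjusted p = 0.0188). In siCtrl libraries Gapdh was counted at only 109 to 155 CPM in NucleoSpin and 63.9 to 107 CPM in TRIzol, against 1193 to 1621 and 520 to 872 CPM for Pgk1. Why Gapdh was counted so low was not tested, so its values may not measure the transcript. Of the members given here, the transporters and Bnip3 had wider gaps than the enzymes.

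For these 2 lists the promoters, 250 bases before to 50 after each start site in RefSeq on GRCm38.p6, were searched on both strands for the motif TGATGNAA, the form of the CCAAT-enhancer and ATF response element bound by ATF4 with a C/EBP partner, and for ACGTG, the core of the hypoxia response element, which also lies within the E-box CACGTG. TGATGNAA was found in 4.06% of all 27025 promoters, in 9 of 35 (25.7%) of the ER stress and amino acid list and in 0 of 33 of the glycolysis and hypoxia list. ACGTG was found in 19.7% of all promoters, in 14 of 35 (40%) and in 18 of 33 (54.5%) of the same lists. In 2 lists described below, ACGTG was found in 10 of 27 (37%) immediate early promoters and in 5 of 18 (27.8%) of YAP and SRF targets. Of other promoters looked at singly, those of Trib3 and Asns held 1 TGATGNAA each, and those of Adm2 and Ddit3 held none. These are matches of letters and not measured binding. Since the lists hold known targets of these factors, a surplus of their motifs can follow from the choice of genes. Called members were not compared with members not called, so the motif counts do not bear on the batch difference. The promoters of Chac1 (chr2:119350992-119351291, plus strand), Fgf21 (chr7:45615441-45615740, minus strand) and Slc16a3 (chr11:120948817-120949116, plus strand) are shown as examples that hold a match, from genes with wide gaps. The motif TGATGNAA on either strand is in capitals in Chac1 and Fgf21, and ACGTG in Slc16a3.
Chac1: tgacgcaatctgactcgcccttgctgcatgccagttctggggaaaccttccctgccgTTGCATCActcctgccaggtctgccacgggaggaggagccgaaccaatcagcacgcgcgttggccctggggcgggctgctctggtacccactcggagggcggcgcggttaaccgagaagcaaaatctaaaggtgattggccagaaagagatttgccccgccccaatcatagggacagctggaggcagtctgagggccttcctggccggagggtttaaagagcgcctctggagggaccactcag
Fgf21: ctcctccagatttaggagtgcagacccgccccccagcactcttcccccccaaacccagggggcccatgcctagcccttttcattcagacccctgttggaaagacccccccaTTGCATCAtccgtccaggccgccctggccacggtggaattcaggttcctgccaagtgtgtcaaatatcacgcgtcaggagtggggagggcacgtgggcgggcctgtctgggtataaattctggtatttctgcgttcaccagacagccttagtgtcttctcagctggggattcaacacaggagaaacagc
Slc16a3: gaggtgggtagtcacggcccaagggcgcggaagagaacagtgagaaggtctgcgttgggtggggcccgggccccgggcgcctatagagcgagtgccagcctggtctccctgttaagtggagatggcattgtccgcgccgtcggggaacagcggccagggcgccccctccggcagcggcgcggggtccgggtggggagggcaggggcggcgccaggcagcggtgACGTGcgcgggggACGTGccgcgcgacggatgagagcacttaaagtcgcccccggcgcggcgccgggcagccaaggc

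The batch difference depended on time at 1637 genes (10.3%), with the difference more positive at 24 h for 754 and more negative for 883, and at 1025 genes without the siCtrl 0 h TRIzol library. In fits of each time point alone, which share no libraries, 14255 genes were tested in both, of which 4209 were called in both in the same direction and 110 in opposite directions. Immediate early genes, whose transcripts appear within minutes of a growth factor or stress signal, were more positive at 24 h for 14 of 36 and more negative for 3. Their median log2 difference was -0.48 at 0 h and 0.17 at 24 h.

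Fos, the transcription factor partner of Jun, lay at 19.5, 21.7, 22.7, 23.2, 23.6 and 29.9 CPM in NucleoSpin libraries at 0 h and at 1.30, 1.33 and 1.52 CPM in TRIzol libraries. At 24 h it lay at 0.692 to 2.22 CPM against 1.80, 2.74 and 3.16 CPM. Fos was thus lower in every TRIzol library at 0 h, while at 24 h the ranges overlapped, with log2 differences of -4.04 and 1.08 and a change of 5.10 (adjusted p = 6.71e-11). Egr1, a zinc finger factor of the same response, lay at 266 to 400 CPM against 66.8, 69.1 and 81.7 CPM at 0 h and at 28.3 to 44.9 CPM against 116, 141 and 157 CPM at 24 h. Its order reversed without overlap at either time, from -2.18 to 1.87, a change of 4.05 (adjusted p = 4.42e-16).

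Fosb, chosen after its values were seen, went from -2.43 to 0.58 (change 2.99, adjusted p = 1.16e-06), whereas Dusp1, a MAP kinase phosphatase, was lower at both times, at 27.3 to 78.8 CPM in NucleoSpin and 6.29 to 10.4 CPM in TRIzol libraries (log2 difference -2.58, adjusted p = 3.17e-09). Not every member of the list therefore reversed. Colec10, a secreted collectin, lay at 2.02 to 7.90 CPM against 4.94 to 6.96 CPM at 0 h, with overlap, and at 7.50 to 64.6 CPM against 1.16 to 3.94 CPM at 24 h, without overlap (change -3.81, adjusted p = 1.12e-06). Cilp, a cartilage matrix protein, was low in every library at 0 h and lay at 0.657 to 2.47 CPM against 16.8, 19.7 and 30.5 CPM at 24 h (change 3.66, adjusted p = 0.000271).

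Genes of cholesterol and fatty acid synthesis, which SREBP factors raise when sterols are scarce, were more positive at 24 h for 14 of 35 and more negative for none, with medians of -0.68 at 0 h and 0.09 at 24 h. Insig1, a sterol sensor that holds SREBP in the ER, lay at 94.2 to 150 CPM in NucleoSpin and 26.2, 35.0 and 40.6 CPM in TRIzol libraries at 0 h, and at 50.7 to 108 CPM against 60.4, 107 and 116 CPM at 24 h. The groups were apart at 0 h only, and the log2 difference went from -1.72 to 0.33, a change of 2.05 (adjusted p = 1.52e-06). Hmgcs1, an enzyme of the mevalonate pathway, went from -1.04 to 0.41. The ER stress and hypoxia lists moved the other way, with 21 of 39 and 20 of 38 members more negative at 24 h and none more positive.

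**Figure D3:**
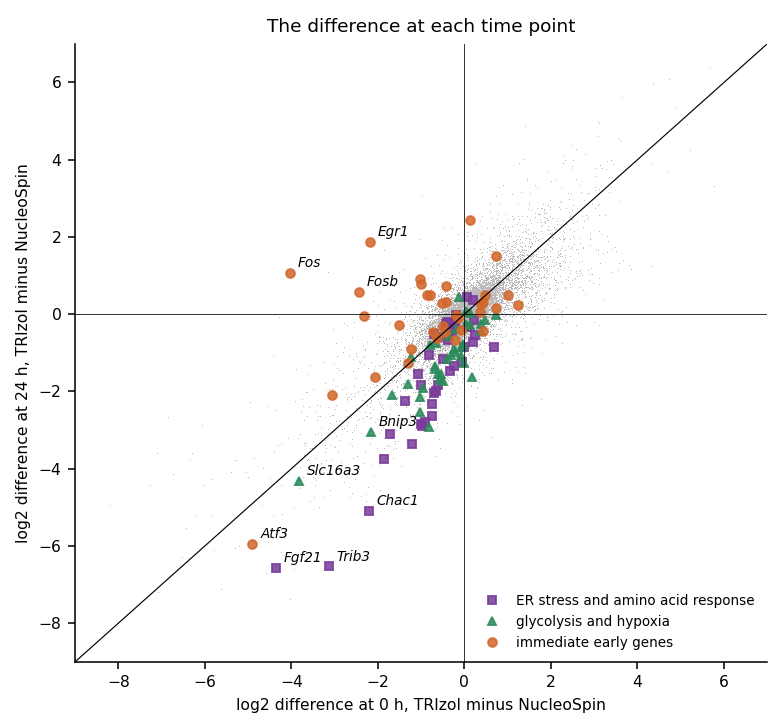
TRIzol minus NucleoSpin log2 difference of each gene at 0 h (x axis) and 24 h (y axis), with all genes in grey, ER stress and amino acid genes as purple squares, glycolysis and hypoxia genes as green triangles and immediate early genes as orange circles, and a line where both are equal. Fos at -4.04 and 1.08 and Egr1 at -2.18 and 1.87 lie far above the line, Trib3 at -3.13 and -6.53 far below.

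Muscle genes were lower more often than higher. Of 59 sarcomere and contraction genes 27 (45.8%) were lower and 4 (6.78%) higher, against 25.3% and 26.1% of all genes tested. The median log2 difference was -0.59, but by condition the median ran from -1.03 to 0.17, so the lean was not seen in every condition. For 14 of the lower genes the TRIzol library was below both NucleoSpin libraries in all 6 conditions. In a bulk sample fewer cells of a type and less RNA per cell cannot be told apart. Des, the muscle intermediate filament desmin and a myoblast marker, lay at 842 to 1506 CPM in NucleoSpin (median 982) and 67.3, 68.5, 84.2, 91.8, 127 and 140 CPM in TRIzol libraries. The groups were far apart at both times, with a log2 difference of -3.52 (SE 0.09, adjusted p = 9.82e-16). Smyd1, a muscle methyltransferase of the same family as Smyd3, had a log2 difference of -3.63 (adjusted p = 1.7e-05), whereas Ryr3, a calcium release channel, was higher by 1.98 (adjusted p = 3.85e-11).

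Of 24 myogenic and progenitor transcription factors 9 (37.5%) were higher and 8 (33.3%) lower, against 26.1% and 25.3% of all genes tested. Myod1, the factor that sets the myoblast fate, lay at 24.9 to 38.6 CPM in NucleoSpin and 4.67, 5.41 and 6.41 CPM in TRIzol libraries at 0 h, and at 8.54 to 20.2 CPM against 4.97, 5.02 and 9.25 CPM at 24 h. It was lower in the TRIzol library of every condition, by -1.82 (SE 0.20, adjusted p = 1.36e-06), with overlap across conditions at 24 h. Myog, myogenin, which starts terminal differentiation, lay at 1.01 to 1.87 CPM against 0.135, 0.184 and 0.193 CPM at 0 h. At 24 h it lay at 222 and 262 CPM against 55.6 CPM with siCtrl, 17.2 and 19.8 CPM against 5.64 CPM with siSMYD3#1, and 45.2 and 48.6 CPM against 31.1 CPM with siSMYD3#2. Its log2 difference was -1.60 (SE 0.23, adjusted p = 3.55e-05), lower in 6 of 6 conditions. Myf5, another myogenic factor, had a log2 difference of -0.21 that missed the threshold (adjusted p = 0.0105).

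Of 58 genes of mitosis and cytokinesis, which condense and separate chromosomes, 34 were lower, 3 higher and 21 not called, with a median of -0.36. Ncapg, a condensin subunit, ranged over 60.6 to 159 CPM in NucleoSpin (median 109) and 34.4 to 66.4 CPM in TRIzol libraries (median 52.7), a log2 difference of -1.06 (SE 0.07, adjusted p = 8.1e-10). Mki67, the proliferation marker, was among the 3 that were higher, at 235 to 453 CPM (median 384) against 341 to 566 CPM (median 480), by 0.35 (SE 0.05, adjusted p = 4.68e-06). Both overlapped between groups and kept 1 order in all 6 conditions.

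Targets of YAP and SRF, factors that respond to the actin cytoskeleton, were higher for 15 of 24 and lower for 5, with a median of 0.60. Thbs1, thrombospondin 1, ranged over 369 to 1394 CPM in NucleoSpin (median 477) and 1879 to 7011 CPM in TRIzol libraries (median 2966), a log2 difference of 2.55 (SE 0.16, adjusted p = 6.98e-09). Acta2, smooth muscle actin, ranged over 721 to 1880 CPM (median 1102) against 2169 to 4797 CPM (median 3353), a log2 difference of 1.47 (SE 0.08, adjusted p = 1.71e-11). Neither overlapped.

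Oxidative stress and metallothionein genes were higher for 13 of 21 and lower for 4, with a median of 0.36. Nqo1, a quinone reductase under NRF2, ranged over 11.1 to 89.4 CPM in NucleoSpin (median 38.2) and 46.4 to 208 CPM in TRIzol libraries (median 131), with a log2 difference of 1.67 (SE 0.08, adjusted p = 2.98e-12). Mt2, a metallothionein that binds zinc and copper, ranged over 0.635 to 3.16 against 7.36 to 11.6 CPM, with a log2 difference of 2.42 (SE 0.16, adjusted p = 3e-10). Nqo1 overlapped between groups and Mt2 did not, although 432 of the 588 exon bases of Mt2 overlap a gene on the opposite strand. Interferon-stimulated genes were higher for 16 of 35 and lower for 6 (median 0.48), and chemokines and cytokines for 11 and 4 of 21 (median 0.56).

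Secreted and matrix genes were called in both directions, as were all genes tested (26.1% higher and 25.3% lower). Of 46 secreted growth factors and binding proteins 18 (39.1%) were higher and 11 (23.9%) lower, with a median of 0.23 (0.11 without the siSMYD3#2 24 h TRIzol library). Of 43 matrix glycoproteins and proteoglycans 20 (46.5%) were higher and 15 (34.9%) lower. Igfbp2, which binds insulin-like growth factors, ranged over 1040 to 2294 CPM in NucleoSpin (median 1811) and 79.6 to 194 CPM in TRIzol libraries (median 114), a log2 difference of -3.81 (SE 0.17, adjusted p = 8.6e-11). Grem1, a BMP antagonist, ranged over 8.85 to 50 against 81.5 to 289 CPM, a log2 difference of 2.83 (SE 0.10, adjusted p = 5.45e-13). Loxl2, a collagen crosslinking oxidase, ranged over 128 to 347 against 14.4 to 31.7 CPM (log2 difference -3.29, SE 0.09, adjusted p = 1.52e-15), and Col12a1, a fibril-associated collagen, over 186 to 425 against 778 to 1377 CPM (log2 difference 2.07, SE 0.14, adjusted p = 1.64e-08). All 4 separated the groups completely, but they were named for their wide differences, so this is not a result about their lists.

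**Figure D4:**
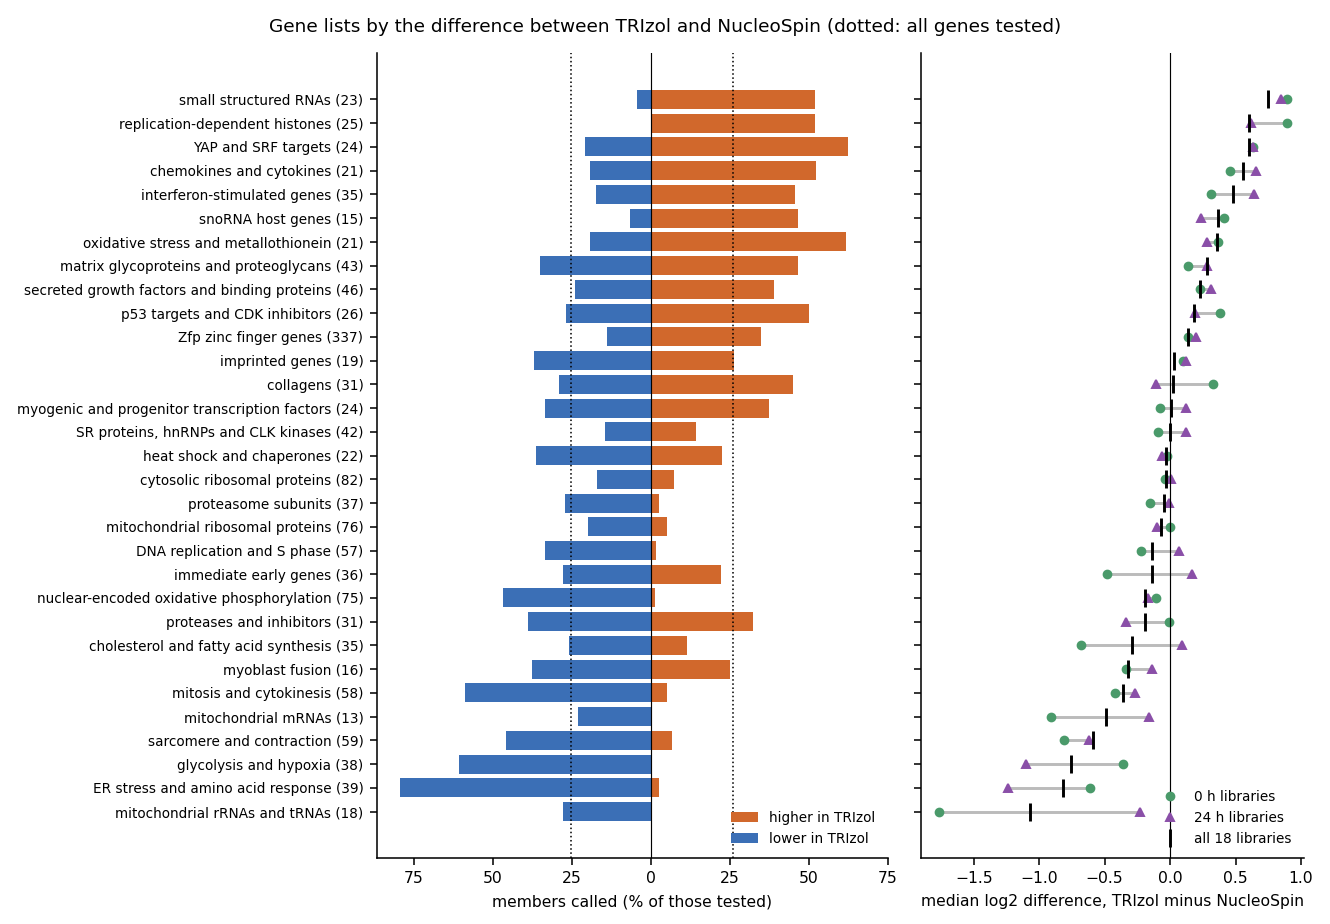
For 31 gene lists, the percent of tested members higher or lower in TRIzol (left, dotted lines for all genes tested) and the median log2 difference at 0 h (green circles), at 24 h (purple triangles) and over all 18 libraries (black bars). ER stress and amino acid genes (median -0.82), glycolysis and hypoxia genes (-0.76) and sarcomere genes (-0.59) lie on the lower side, small structured RNAs such as snoRNAs (0.75) and histone genes (0.60) on the higher side, and ribosomal protein genes (-0.03) near 0.

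Among genes with a mean of at least 100 counts and the TRIzol library beyond both NucleoSpin libraries in all 6 conditions, Csn3 had the largest fall, and further genes at that end, beside Fgf21, Adm2 and Atf3 above, were Stmn4 and Mmp10. Csn3, κ-casein, lay at 5.15 to 28.7 CPM in NucleoSpin and 0.0338 to 0.235 CPM in TRIzol libraries, the latter only 1 to 6 counts, with a fitted log2 difference of -7.20 (SE 0.19, adjusted p = 1.61e-15). Stmn4, a microtubule-destabilizing stathmin, ranged over 29.6 to 96.0 CPM (median 53.3) against 0.237 to 1.27 CPM (median 0.717), a log2 difference of -6.41 (SE 0.12, adjusted p = 1.77e-17). Mmp10, a matrix metalloprotease, ranged over 7.51 to 65.6 against 0.169 to 0.809 CPM, a log2 difference of -5.35 (SE 0.20, adjusted p = 3.98e-13). In Csn3, Stmn4 and Mmp10 the lowest NucleoSpin library exceeded the highest TRIzol library.

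In the other direction, Cdhr1, a protocadherin-related adhesion gene, lay at 0.220 to 2.05 CPM in NucleoSpin libraries and at 14.7, 17.1 and 19.6 CPM at 0 h and 57.4, 60.3 and 60.5 CPM at 24 h in TRIzol libraries, a log2 difference of 5.16 (SE 0.26, adjusted p = 7.57e-10). Cxcl12, the ligand of the chemokine receptor CXCR4, ranged over 0.261 to 6.72 CPM (median 1.12) against 13.4 to 40.8 CPM (median 31.0), a log2 difference of 4.05 (SE 0.29, adjusted p = 5.06e-08). Spock2, a matrix proteoglycan, ranged over 0.570 to 1.31 against 6.15 to 13.7 CPM, and Wnt4, a secreted WNT ligand, over 0.653 to 3.10 against 5.25 to 21.5 CPM. None of these 4 overlapped, which their selection by size and by separation within conditions favours.

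**Figure D5:**
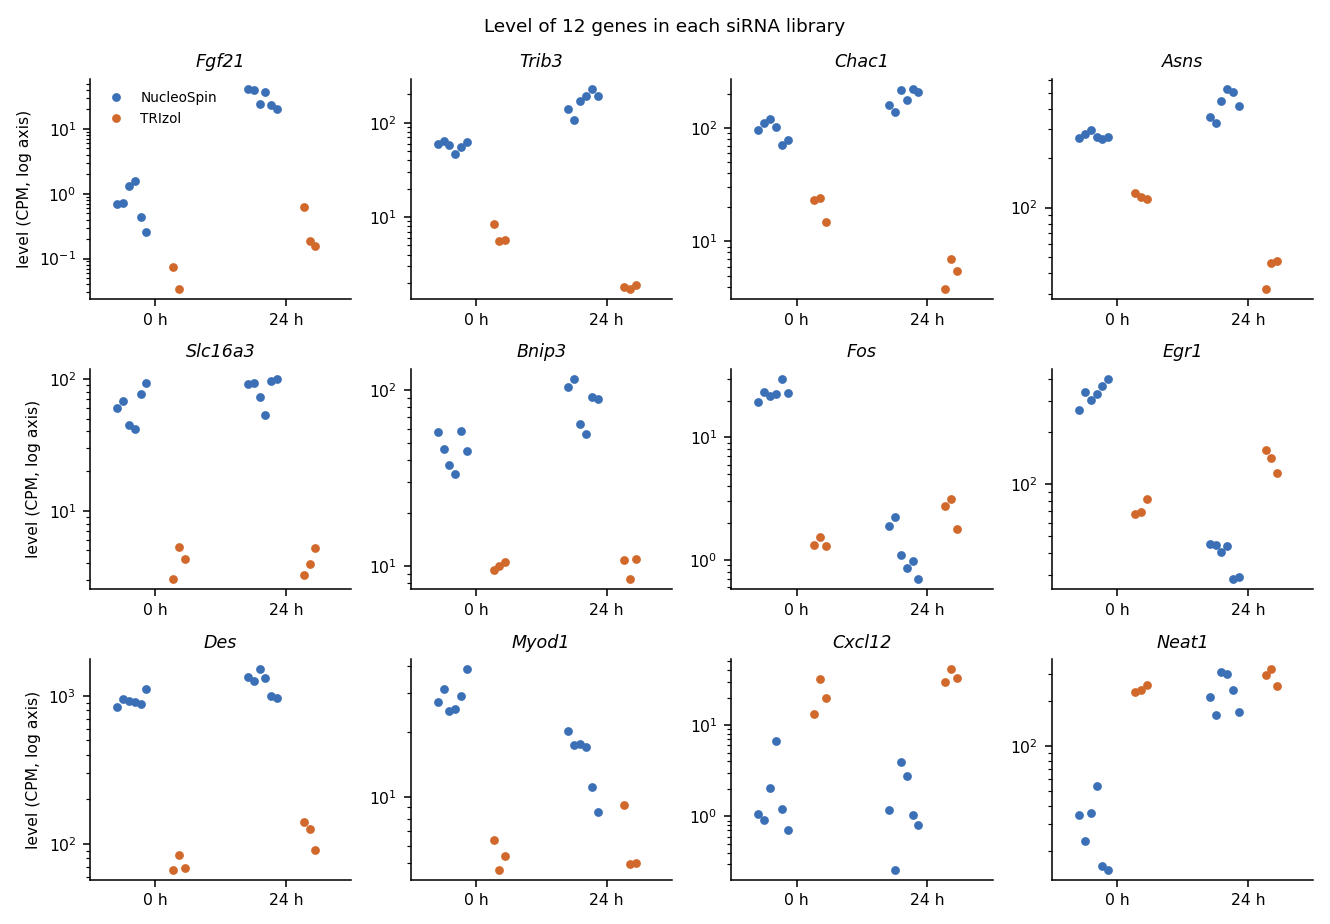
Level of 12 genes in the 18 siRNA libraries in CPM on a log axis, by time and extraction, where the library of Fgf21 at 0 CPM is not drawn. Trib3, Chac1, Asns, Slc16a3, Bnip3 and Des are lower in every TRIzol library of both times, Cxcl12 is higher, and Fos and Egr1 are lower at 0 h but not at 24 h.

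The batch difference depended on the siRNA at 1 gene (0.00632%) in edgeR, with 1356 at an unadjusted p under 0.05 and 71 called by DESeq2. That gene, Zbtb20, a zinc finger repressor, lay at 67.7 and 112 CPM in the TRIzol libraries of siCtrl against 54.3 to 92.0 CPM in NucleoSpin libraries. With siSMYD3#1 it lay at 52.4 and 66.7 CPM against 55.3 to 89.4 CPM, and with siSMYD3#2 at 96.7 and 158 CPM against 44.1 to 85.3 CPM. TRIzol libraries were above both NucleoSpin libraries of their time with siCtrl and siSMYD3#2 and below with siSMYD3#1, and the differences from siCtrl were -0.51 and 0.76 on the log2 scale (adjusted p = 0.00169 for both terms together). Leaving out 1 library gave 0 to 4 such genes, 0 without the siSMYD3#1 24 h TRIzol library.

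The difference went with gene structure by small amounts. With the genes in 10 bins of equal number, those of the longest exon sequence, 6440 to 123179 bases, were higher in 39.0% and lower in 22.1%, with a median log2 difference of 0.12, and those of the shortest in 14.8% and 14.5%, with a median of -0.07. Among protein-coding genes, those with the lowest share of G and C were higher in 12.4% and lower in 41.3% (median -0.21), the median rose over the next bins to 0.05 in the sixth, and those with the highest share were higher in 27.1% and lower in 25.6% (median 0.04). The mean transcript length weighted by counts was 4002 to 4489 bases in TRIzol (median 4201) and 3832 to 4155 bases in NucleoSpin libraries (median 3942), with overlap (exact permutation p = 0.00137, adjusted p = 0.00274).

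The vector libraries, a further TRIzol extraction from this line, can be set beside the siCtrl libraries of both extractions, with the caveat that they carry a retroviral vector and no siRNA. Among the lists, the ER stress and amino acid genes had a median log2 difference of -1.14 from the NucleoSpin siCtrl libraries and -0.08 from the TRIzol siCtrl libraries, and the glycolysis and hypoxia genes -0.98 and -0.07. TEC loci had 0.49 and 0.02 and antisense genes 0.41 and 0.02. In these groups the vector libraries lay nearer to the TRIzol siCtrl libraries. Sarcomere genes had -1.50 and -0.81, away from both groups and farther from NucleoSpin, and mitochondrial mRNAs had 0.17 and 0.77, nearer to NucleoSpin.

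Single genes differed in the same way. Chac1 lay at 100 to 163 CPM in NucleoSpin siCtrl, 3.91 to 23.4 CPM in TRIzol siCtrl and 3.97 to 17.6 CPM in vector libraries. Cxcl12 lay at 0.266 to 1.21, 13.7 to 30.6 and 18.9 to 35.1 CPM, and Slc16a3 at 61.8 to 94.4, 3.08 to 3.33 and 7.82 to 10.5 CPM. For these 3 genes the vector libraries lay nearest to the TRIzol siCtrl libraries. Cdhr1 lay at 0.228 to 1.21, 14.9 to 62.0 and 1.93 to 5.31 CPM, Des at 873 to 1378, 68.6 to 144 and 303 to 669 CPM, and Myod1 at 17.8 to 32.8, 6.53 to 9.52 and 13.7 to 32.3 CPM. Cdhr1 and Des were thus between both groups in the vector libraries, and Myod1 overlapped the NucleoSpin range.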

How the data were processed

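The 18 siRNA libraries and 4 vector libraries of poly(A) RNA, made with a stranded mRNA kit, were used. Per the submitters' processing notes and the study's methods, the authors aligned reads to GRCm38 with HISAT2 2.1.0 and counted them per gene with featureCounts (Subread 1.6.3), and the deposited values are raw counts, not normalized. Strand setting, multi-mapping and annotation release are not given in the sources used here. Extraction came from the public labels, and passage and replicate number from the study's sample table.

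Counts of 55341 listed genes (54495 in GENCODE M21, used for gene types, coordinates and exons) were fitted in R 4.3.3 with edgeR 4.0.16: filterByExpr, TMM, a quasi-likelihood F test with 6 conditions and extraction, Benjamini-Hochberg adjustment over all genes tested, threshold 0.01. The test of NucleoSpin replicate 2 against 1, and interactions of extraction with time and siRNA, used the same libraries. A standard error is the size of the log2 difference divided by the square root of F. Shares were tested by exact permutation within conditions, two-sided. DESeq2 1.42.0 and limma-voom 3.58.1 were alternatives. The code was tested on simulated data. No 2 libraries held identical values. Low values carry counting error beside the variation between libraries.

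The members and gene lists were chosen with earlier results of these data known. Genes named are the 12 largest rises and falls with a mean of at least 100 counts and all 6 conditions apart, up to 4 called members per list, up to 3 per noncoding type, a fixed set, and up to 4 per interaction, plus list members and genes marked as chosen later. Wide gaps and groups without overlap among the named genes follow in part from this choice. Of 190 genes the rule gives, 26 overlap exons of another gene in the same orientation and 48 in the opposite one, which leaves their counts uncertain. The libraries of SMYD3 CL5 cells entered only the fit of all 26 libraries. A few items are not reported here.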

Additional observations from a re-analysis of the deposited data

Results flagged for a closer look

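The snoRNA share of counts stood out in 1 of the 6 conditions: the TRIzol minus NucleoSpin difference was 0.00281 percentage points in siSMYD3#2 cells at 0 h, far above the other conditions, with a gap to the nearest of 0.76 of the whole range, past Dixon's critical value. Chance gives about 1 in 20 groups such a value.

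The batch difference changed between 0 h and 24 h at 1637 genes by the interaction test in edgeR. Among the genes with the widest change, Fos moved by 5.10 on the log2 scale (adjusted p = 6.71e-11), Egr1 by 4.05 (adjusted p = 4.42e-16), Colec10 by -3.81 (adjusted p = 1.12e-06) and Cilp by 3.66 (adjusted p = 0.000271). For Zbtb20 the batch difference under siSMYD3#1 minus that under siCtrl was -0.51 (adjusted p = 0.00169 for both siRNA terms of edgeR together).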

How the results depend on the processing

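Among the alternatives planned, the number of genes called between TRIzol and NucleoSpin was 3005 with siCtrl libraries alone, 2736 with siSMYD3#1, 3263 with siSMYD3#2 and 2385 where a 2-fold change was also required. It was 8453 with DESeq2, 8242 with limma-voom, 6470 with all 26 libraries and 8937 without a filter on low counts. With total counts in place of TMM the split was 4670 higher and 3425 lower. The time-dependent genes numbered 3142 at an adjusted p of 0.05, and 1025 without the siCtrl 0 h TRIzol library. The siRNA-dependent genes numbered 71 with DESeq2 and 10 at an adjusted p of 0.05. With 27 arrangements and a smallest exact p of 0.0370 at either time, 15 of the 20 shares and measures passed at 0 h alone and 0 at 24 h alone, and the difference between the times was not tested. After adjustment over 20 measures, any could pass only if most of them reached that smallest p together. The counts 15 and 0 therefore do not show that the differences were absent at 24 h. Leaving out each library in turn gave 7515 to 8204 genes for the batch, 0 to 0 for replicate 2 against 1, 1025 to 1856 for time, 0 to 4 for siRNA, and 14 to 16 lists. Replicate numbers do not pair the libraries, since correlations of same-numbered deviations over 15 pairs of conditions ran from -0.18 to 0.34 (median -0.03, 3 over 0.1), and with the replicate block 7985 genes were called for the batch, 1590 for time and 1 for siRNA. Of 177 named genes called, 99 were called in all 33 alternatives and 0 changed sign in any. Single TRIzol libraries and genes of a few counts limit the precision.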
